A study of Homo sapiens with 18 samples.

Results

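HSP90 and its cochaperones were followed in heat-shocked SW620 cells through the 10 genes HSP90AA1, HSP90AB1, FKBP4, STIP1, AHSA1, PTGES3, CHORDC1, CDC37, ST13 and FKBP5. These were chosen by name as the cytosolic HSP90 genes and genes of proteins that work with them, with earlier results of these data known. They are 10 of the 26485 gene symbols in the count table, and all 10 were among the 12832 genes that passed the filter on low counts (CPM, counts scaled to a common library size, above 1 in at least 3 libraries). SW620 is an established human colon cancer cell line. Cells received scramble siRNA or siRNA against LONP1 (siLonp1), which encodes a mitochondrial protease, and then stayed at 37 °C (Ctrl), went through 1 h of heat at 42 °C (HS), or had the same heat followed by 1 h of recovery at 37 °C (HS+REC). Each of the 6 groups had 3 libraries of polyadenylated RNA from independent biological replicates, and the libraries held 30815860 to 47279297 counts. The comparisons ask how heat and recovery moved these transcripts and whether silencing LONP1 altered that response. Each library pools the cells of a culture, so that a change in some cells and a change in all of them cannot be told apart.

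HSP90 is an ATP-driven chaperone that holds nearly folded client proteins, among them kinases and steroid hormone receptors, and works as a dimer that opens and closes. Cochaperones bring clients to it or set the pace of its cycle: STIP1 (HOP) and ST13 (HIP) link it to HSP70, CDC37 recruits kinases, AHSA1 speeds up ATP hydrolysis, PTGES3 (p23) holds the closed state, FKBP4 (FKBP52) and FKBP5 (FKBP51) are immunophilins of steroid receptor complexes, and CHORDC1 is a zinc-binding partner of HSP90. In textbook accounts HSP90AB1 is the constitutive form and HSP90AA1 the heat-inducible form, and heat shock factors bind promoters at repeats of the unit GAA and its reverse complement TTC.

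The silencing was checked first. LONP1 was at 223, 225 and 215 CPM in Ctrl scramble and at 19.4, 22.5 and 19.5 CPM in Ctrl siLonp1, at 219, 227 and 197 against 11.8, 11.5 and 11.8 CPM in HS, and at 225, 197 and 233 against 27.1, 25.6 and 28.9 CPM in HS+REC. All 9 siLonp1 libraries lay far below all 9 scramble libraries, which fits their labels. Within the siLonp1 arm the residual LONP1 was lowest in HS and highest in HS+REC, with no overlap between these groups.

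The promoters of the members were read for the repeats, and their part in the changes below was not tested. RefSeq promoter windows (GRCh38.p14, from 250 bases before to 50 after a start) were matched by symbol for 8 of the 10 genes, with 14 windows in all; FKBP4 and ST13 had no match. The motifs were searched on both strands: GAANNTTC and TTCNNGAA, 3 alternating GAA and TTC units with 2 bases between units (which contain the former motifs), CCAAT or ATTGG, and TATAAA or TTTATA. At least 1 window held 3 alternating units in 3 members (HSP90AA1, HSP90AB1 and CHORDC1), against 166 of the 27305 genes in the same table (0.608%). GAANNTTC or TTCNNGAA occurred in 4 members, the former 3 and STIP1, and in 16.2% of genes; CCAAT or ATTGG occurred in 3 members (HSP90AA1, STIP1 and FKBP5) and in 39.7% of genes; and TATAAA or TTTATA occurred in STIP1 and in 14.0% of genes. By window, these letters stood in 0.49% (3 units), 6.77% (GAANNTTC), 7.74% (TTCNNGAA), 34.6% (CCAAT) and 11.5% (TATAAA) of the 35116 promoters. The windows of AHSA1, PTGES3 and CDC37 held none of the motifs, which says only that these letters are absent from the windows.

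The stretches that hold the repeats are shown because they belong to the HSP90 genes and to CHORDC1, the member with the steepest rise in the recovery hour; the STIP1 stretch shows an arrangement of another kind. They are written 5′ to 3′ on the strand of the gene, with every motif match in capitals.
HSP90AA1 (chr14:102087095-102087152, minus strand, 108 to 51 bases before the start of the canonical transcript): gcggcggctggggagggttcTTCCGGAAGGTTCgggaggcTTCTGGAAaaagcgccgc
HSP90AB1 (chr6:44247758-44247853, plus strand, within an intron of the canonical transcript and 185 to 90 bases before a start that lies 842 bases downstream of the canonical one): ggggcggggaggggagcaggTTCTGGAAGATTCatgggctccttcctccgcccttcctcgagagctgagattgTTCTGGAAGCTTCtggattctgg
CHORDC1 (chr11:90223055-90223274, minus strand, 225 to 6 bases before the canonical start): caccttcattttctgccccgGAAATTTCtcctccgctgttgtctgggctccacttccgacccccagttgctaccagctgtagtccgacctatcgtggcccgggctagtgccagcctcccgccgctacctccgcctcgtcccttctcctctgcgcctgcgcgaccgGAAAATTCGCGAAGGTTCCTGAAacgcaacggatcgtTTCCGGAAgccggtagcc
STIP1 (chr11:64185921-64186100, plus strand, 250 to 71 bases before the canonical start): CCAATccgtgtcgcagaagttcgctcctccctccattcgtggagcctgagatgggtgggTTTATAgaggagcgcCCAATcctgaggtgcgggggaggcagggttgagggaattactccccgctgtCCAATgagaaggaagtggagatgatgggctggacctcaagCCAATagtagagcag
HSP90AA1 had 1 run of 3 units, starting 88 bases before the start. HSP90AB1 had 2 such runs, both in its intronic window and none in the window before its canonical start. CHORDC1 had 3 overlapping runs that together make an unbroken row of alternating units, 60 bases before the start. STIP1 had 4 CCAAT boxes and no run of 3 units. Its only TTCNNGAA match begins 14 bases into the transcribed part of the window and lies outside the stretch shown.

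Across the 10 genes, heat raised most of the family and recovery raised it further. In HS against Ctrl, 8 members were called raised in scramble and 8 in siLonp1 (edgeR quasi-likelihood test, Benjamini-Hochberg FDR of at most 0.05 over all genes tested), where 18.6% and 20.2% of all genes were raised. No member was called lowered in either arm, against 17.3% and 22.1% of all genes, and the number lowered was also 0 with DESeq2 and at an unadjusted p under 0.05. With a fold change above 2 also required, 2 members were raised in scramble and 3 in siLonp1, against 2.94% and 3.42% of all genes. In HS+REC against Ctrl, 9 members were raised and 1 lowered in each arm, while all genes were raised in 21.8% (scramble) and 24.6% (siLonp1) and lowered in 20.5% and 26.6%. Above 2-fold, 6 members were raised in scramble and 7 in siLonp1, against 3.78% and 4.51%. HS and HS+REC of an arm were compared with the same Ctrl libraries, so that these comparisons share their controls.

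The recovery hour itself was compared as HS+REC against HS. There 8 members were raised and 1 lowered in each arm, against 14.2% raised and 12.7% lowered of all genes in scramble and 16.3% and 15.6% in siLonp1. The median log2 fold change of the 10 genes was 0.57 in HS and 1.30 in HS+REC in scramble, and 0.60 and 1.40 in siLonp1, and the all-gene median lay between -0.01 and 0.00 in these comparisons. Their summed counts took 0.777%, 0.750% and 0.770% of the Ctrl scramble libraries, 1.38%, 1.36% and 1.39% of the HS libraries and 1.99%, 2.24% and 2.15% of the HS+REC libraries. In siLonp1 the shares were 0.707%, 0.697% and 0.734% in Ctrl, 1.54%, 1.43% and 1.53% in HS and 2.35%, 2.43% and 2.08% in HS+REC. The 3 conditions were separate in each arm.

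**Figure D1:**
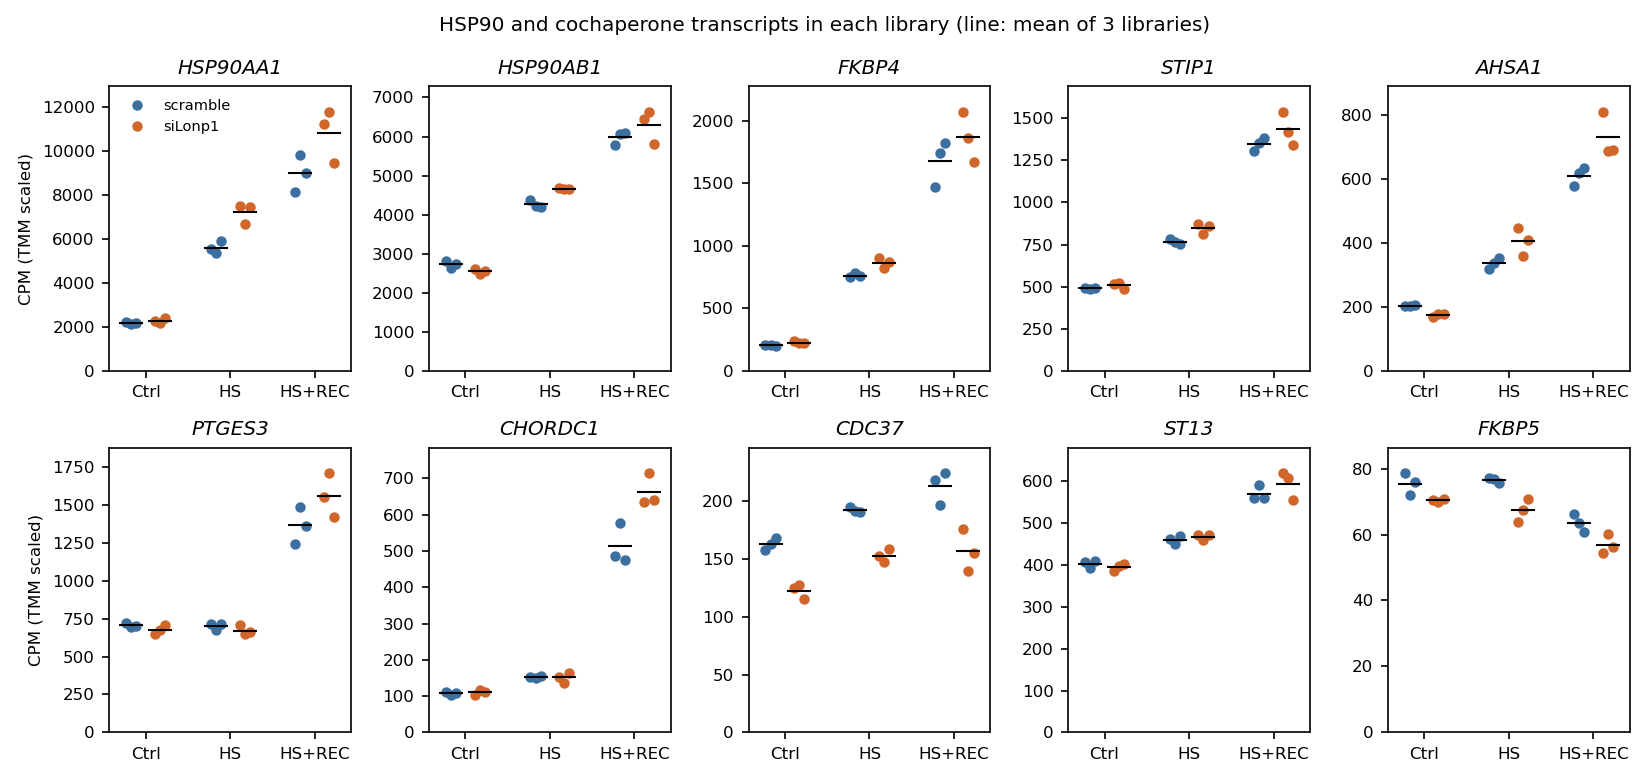
CPM (TMM scaled, linear axis from 0) of each of the 10 genes in every library, by condition and siRNA, with a line at the mean of 3 libraries. FKBP4 rose from 203 to 204 CPM in Ctrl scramble to 1472 to 1822 CPM in HS+REC, PTGES3 overlapped Ctrl in HS and lay above it in HS+REC, and FKBP5 lay below its Ctrl range in HS+REC.

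Levels were compared between genes per kilobase of the Ensembl canonical transcript (GENCODE 44), a length that need not be that of the transcripts in these cells. In Ctrl scramble the mean levels, in CPM per kb, were 1068 for HSP90AB1, 676 for HSP90AA1, 372 for PTGES3, 229 for STIP1, 153 for AHSA1, 126 for ST13, 101 for CDC37, 54.8 for FKBP4, 35.1 for CHORDC1 and 20.1 for FKBP5. No neighbours in this order overlapped between libraries. In HS scramble HSP90AA1 (1737) and HSP90AB1 (1668) overlapped in level, and so did PTGES3 (370.2) and STIP1 (358). In HS+REC scramble HSP90AA1 (2789) lay above HSP90AB1 (2341) without overlap. FKBP4 had moved from rank 8 to rank 6 with 452 CPM per kb, overlapping AHSA1 at 457, and CHORDC1 had moved from rank 9 to rank 8 with 167, overlapping ST13 at 178. FKBP5 was last in all 6 groups, at 16.9 in HS+REC scramble.

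HSP90AA1 encodes the heat-inducible HSP90 alpha (chr14:102080742-102139699, minus strand). It was at 2208, 2157 and 2178 CPM in Ctrl scramble, 5544, 5388 and 5895 CPM after heat (HS) and 8144, 9836 and 9024 CPM in HS+REC. In siLonp1 the libraries held 2262, 2185 and 2419 CPM in Ctrl, 7502, 6688 and 7450.3 CPM in HS and 11249.8, 11786 and 9438 CPM in HS+REC. Each step rose without overlap in both arms, and the Ctrl groups of the arms overlapped whereas all HS libraries of siLonp1 lay above those of scramble. The log2 fold change in HS was 1.36 ± 0.08 (SE, 3 libraries a group; 2.57-fold, adjusted p = 1.11e-12) in scramble and 1.66 ± 0.08 (3.15-fold, adjusted p = 2.69e-14) in siLonp1. In HS+REC it reached 2.05 ± 0.08 and 2.24 ± 0.08, so that 66.6% of the log2 change in scramble and 73.9% in siLonp1 was present at the end of the heat.

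HSP90AB1 encodes the constitutive HSP90 beta (chr6:44246166-44253888, plus strand). Scramble libraries held 2817, 2624 and 2748 CPM in Ctrl, 4378, 4215 and 4195 CPM in HS and 5779.8, 6075 and 6092 CPM in HS+REC, and siLonp1 libraries held 2616, 2470.4 and 2566, then 4685, 4658 and 4649.7, then 6453, 6631 and 5804 CPM. The gene rose at each step in both arms with no overlap, by a smaller fold than HSP90AA1. Its log2 fold change was 0.64 ± 0.05 in HS (1.56-fold, adjusted p = 1.31e-09) and 1.13 ± 0.05 in HS+REC (2.19-fold) in scramble, and 0.87 ± 0.05 and 1.30 ± 0.05 in siLonp1.

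The unequal rise shifted the balance of the HSP90 pair. The ratio of HSP90AA1 counts to HSP90AB1 counts within a library, which does not depend on scaling, was 0.784, 0.822 and 0.793 in Ctrl scramble, 1.27, 1.28 and 1.41 in HS and 1.41, 1.62 and 1.48 in HS+REC. In siLonp1 it was 0.865, 0.884 and 0.943 in Ctrl, 1.60, 1.44 and 1.60 in HS and 1.74, 1.78 and 1.63 in HS+REC. The ratio was higher in HS than in Ctrl, higher in HS+REC than in HS, and higher in siLonp1 than in scramble in each condition, in all cases with no overlap. On the log2 scale the difference from Ctrl was 0.72 in HS and 0.91 in HS+REC in scramble and 0.78 and 0.94 in siLonp1, and siLonp1 exceeded scramble by 0.17 (Ctrl), 0.23 (HS) and 0.19 (HS+REC). An exact two-sided permutation test of 3 against 3 libraries gave p = 0.1 for each of the 9 comparisons, the smallest it can give (adjusted p = 0.1 over the 9), so that none can pass 0.05. The HSP90 genes have pseudogene copies, and how reads shared by several genes were counted is not given in the sources used here. Of 8 HSP90 pseudogenes searched, 2 were in the table, HSP90B2P with 3 to 50 counts a library and HSP90AB4P with 1 to 17.

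**Figure D2:**
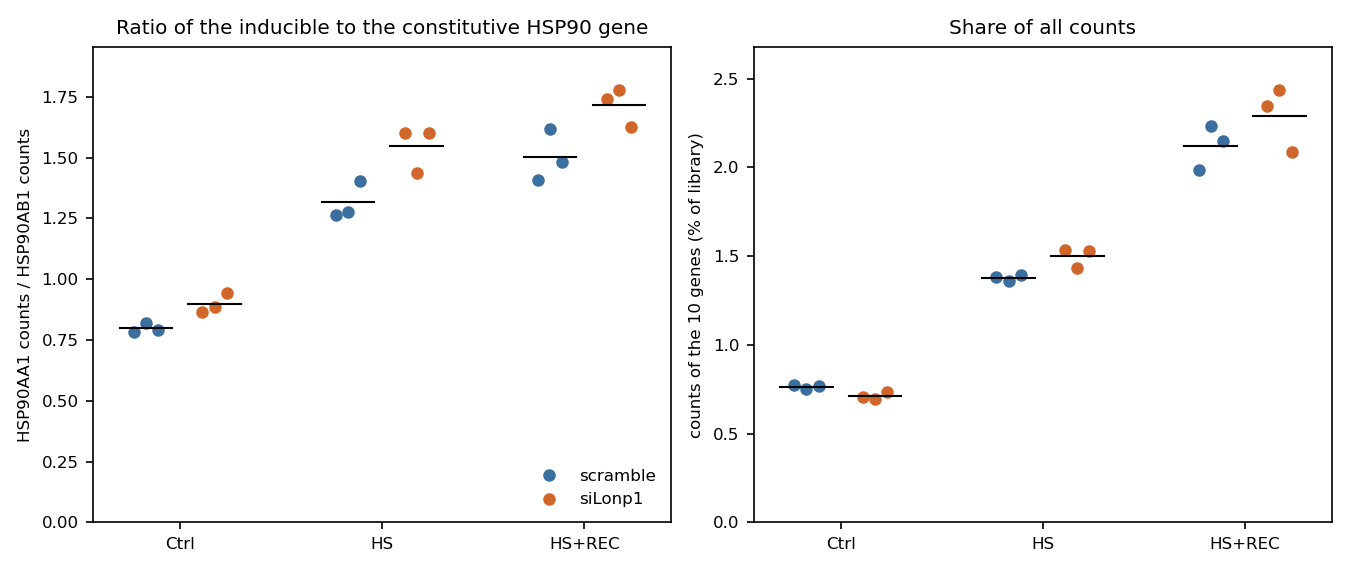
Left, ratio of HSP90AA1 to HSP90AB1 raw counts in each library by condition and siRNA; right, percent of a library's counts that fell on the 10 genes; lines are means of 3 libraries and both axes start at 0. The ratio rose from 0.784 to 0.822 in Ctrl scramble to 1.41 to 1.62 in HS+REC scramble, and the siLonp1 libraries lay above the scramble libraries in each condition.

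The adaptors between HSP70 and HSP90 rose by unequal amounts. STIP1, whose protein binds both chaperones at once, was at 489, 485 and 494 CPM in Ctrl scramble, 781, 763 and 752 CPM after heat (HS) and 1307, 1354 and 1383 CPM in HS+REC. All 3 conditions were separate, also in siLonp1 (487 to 521, 813 to 874 and 1343 to 1538 CPM). The log2 fold change was 0.64 ± 0.05 in HS and 1.46 ± 0.06 in HS+REC in scramble and 0.74 ± 0.05 in HS (1.67-fold) with a 2.82-fold rise in HS+REC in siLonp1. ST13, which binds HSP70, was at 393 to 409 CPM in Ctrl scramble, 449.6 to 469.7 CPM in HS and 559.7 to 591 CPM in HS+REC. Its rise was small but passed the test in HS (0.19 ± 0.05, adjusted p = 0.00511 in scramble; 0.24 ± 0.05, adjusted p = 4.77e-04 in siLonp1) and in HS+REC (0.50 ± 0.05 and 0.59 ± 0.05).

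The immunophilins went opposite ways. FKBP4 (chr12:2794970-2805423, plus strand) was at 204, 204 and 203 CPM in Ctrl scramble, 750.1, 781 and 757 CPM after heat (HS) and 1472, 1746 and 1822 CPM in HS+REC, and in siLonp1 at 235, 219.8 and 224, then 899, 826 and 868, then 2072, 1865 and 1669 CPM. It had the largest fold change of the 10 genes in all 4 comparisons of heated with Ctrl cells. The log2 value was 1.91 ± 0.08 in HS (3.75-fold, adjusted p = 1.35e-15) and 3.04 ± 0.08 in HS+REC (8.25-fold, adjusted p = 2.8e-19) in scramble, and 1.93 ± 0.08 and 3.04 ± 0.08 in siLonp1.

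FKBP5 (chr6:35573585-35728583, minus strand), known as a glucocorticoid-induced gene, was at 78.5, 72.0 and 75.8 CPM in Ctrl scramble, 77.0, 76.8 and 75.5 CPM after heat (HS) and 66.2, 63.6 and 60.7 CPM in HS+REC. In siLonp1 it was at 70.6, 69.9 and 70.7, then 63.9, 67.5 and 70.8, then 54.4, 60.1 and 56.3 CPM. HS overlapped Ctrl in both arms, and HS+REC lay below both. The HS value was 0.02 ± 0.06 in scramble (95% confidence interval -0.10 to 0.14, adjusted p = 0.832) and -0.06 ± 0.06 in siLonp1 (adjusted p = 0.417). In HS+REC the gene fell by 0.25 ± 0.06 in scramble (adjusted p = 0.00115) and by 0.31 ± 0.06 in siLonp1 (adjusted p = 1.08e-04), the only member lowered in a heat comparison.

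AHSA1 (chr14:77457870-77469472, plus strand) was at 204, 203 and 207 CPM in Ctrl scramble, 320.0, 339 and 355 CPM after heat (HS) and 578, 619.8 and 636 CPM in HS+REC. In siLonp1 it started lower, at 169, 178 and 177 CPM, and ended higher, at 448, 359.8 and 409 CPM in HS and 811, 689 and 693 CPM in HS+REC. In each condition the arms did not overlap, with siLonp1 below scramble in Ctrl and above it after heat. The log2 fold change was 0.72 ± 0.07 in HS and 1.58 ± 0.07 in HS+REC in scramble, and 1.22 ± 0.07 and 2.07 ± 0.07 in siLonp1.

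PTGES3 and CHORDC1 rose late. PTGES3 (chr12:56663341-56688408, minus strand) was at 721, 697 and 702 CPM in Ctrl scramble, 716, 677 and 715 CPM after heat (HS) and 1245, 1488 and 1362 CPM in HS+REC, and in siLonp1 at 647, 673 and 711, then 706, 646 and 663, then 1554, 1707 and 1422 CPM. HS overlapped Ctrl in both arms, and every HS+REC library lay above both. The HS value was -0.01 ± 0.07 (95% confidence interval -0.15 to 0.13 in each arm), and the recovery hour raised the gene by 0.96 ± 0.07 in scramble (1.94-fold, adjusted p = 2.07e-10) and 1.22 ± 0.07 in siLonp1 (2.32-fold, adjusted p = 2.67e-12).

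CHORDC1 (chr11:90200429-90223077, minus strand) was at 110.4, 104 and 109 CPM in Ctrl scramble, 154, 149 and 156 CPM after heat (HS) and 486, 578 and 476 CPM in HS+REC. The siLonp1 libraries held 103, 117 and 111 CPM in Ctrl, 154, 137 and 165 CPM in HS and 635, 714 and 640.3 CPM in HS+REC. The conditions were separate in both arms, and in HS+REC all siLonp1 libraries lay above all scramble libraries. The gene rose by 0.50 ± 0.08 in HS in scramble (adjusted p = 1.29e-05) and 0.46 ± 0.08 in siLonp1, and then by 1.75 ± 0.08 (3.36-fold) and 2.13 ± 0.08 (4.37-fold) in the recovery hour, the largest step of the 10 genes there in each arm. In scramble 22.3% of its log2 change in HS+REC was present at the end of the heat, and 17.8% in siLonp1.

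CDC37 (chr19:10391133-10420121, minus strand) differed by siRNA and by heat. Scramble libraries held 158, 163 and 168 CPM in Ctrl, 195, 191 and 191 CPM in HS and 218, 197 and 224 CPM in HS+REC, and siLonp1 libraries held 125, 127 and 116, then 153, 148 and 159, then 176, 139.6 and 155 CPM. Every siLonp1 library lay below every scramble library of its condition. Heat raised the gene by 0.24 ± 0.07 in scramble (adjusted p = 0.00891) and 0.32 ± 0.07 in siLonp1 (adjusted p = 6.34e-04), and HS+REC against Ctrl gave 0.39 ± 0.07 (adjusted p = 7.99e-05) and 0.36 ± 0.07 (adjusted p = 1.63e-04). The further difference of HS+REC from HS was 0.15 ± 0.07 (adjusted p = 0.126) and 0.04 ± 0.07 (adjusted p = 0.751), short of the threshold in each arm.

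**Figure D3:**
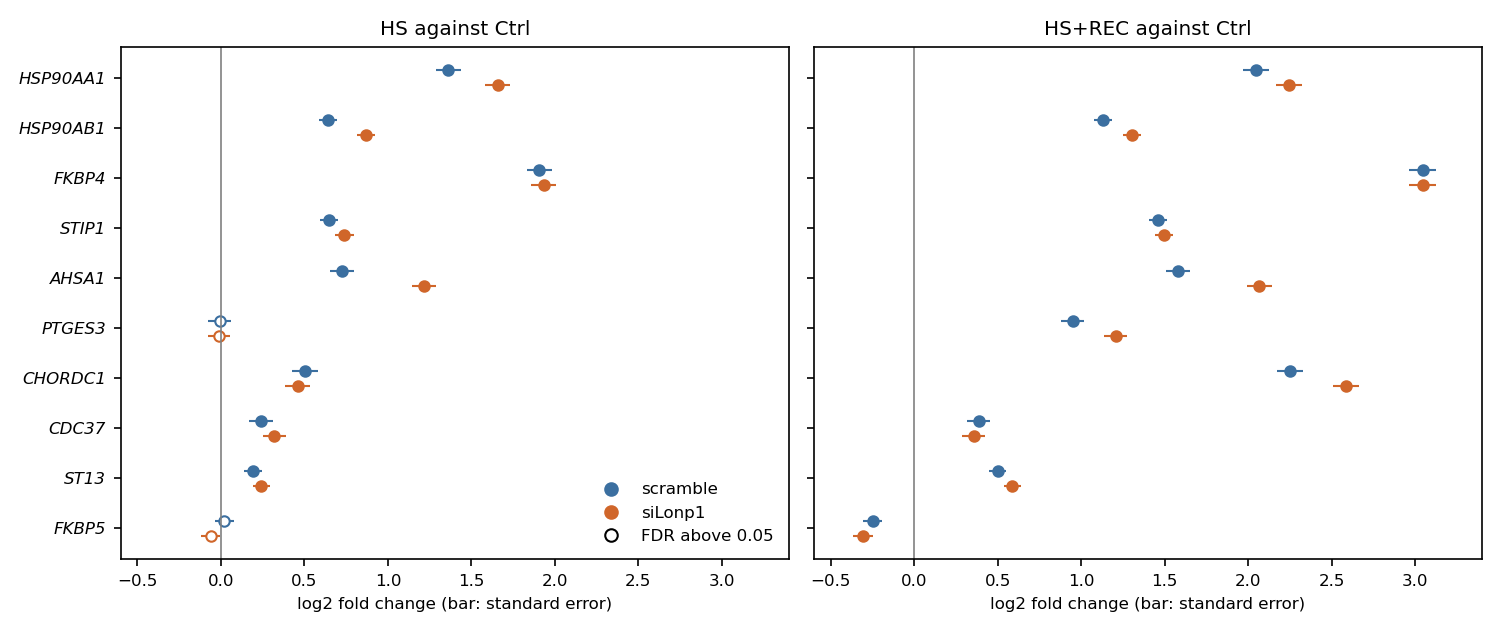
Log2 fold change of each of the 10 genes in HS (left) and HS+REC (right) against Ctrl, by siRNA, with bars of 1 standard error from edgeR; open circles have an FDR above 0.05. FKBP4 stands farthest right (1.91 and 1.93 in HS, 3.04 in both arms in HS+REC), PTGES3 and FKBP5 are open in HS, and FKBP5 is left of 0 in HS+REC.

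The siLonp1 effect was then taken within each condition. In Ctrl, AHSA1 and CDC37 were lower in siLonp1, so that 2 members were lowered against 22.9% of all genes, and 0 members were raised against 26.3% (edgeR; 0 with DESeq2, and 1, FKBP4, at an unadjusted p under 0.05). In HS, 5 members were raised (HSP90AA1, HSP90AB1, FKBP4, STIP1 and AHSA1) against 28.1% of all genes and 2 lowered (CDC37 and FKBP5) against 26.7%. In HS+REC, 4 were raised (HSP90AA1, AHSA1, PTGES3 and CHORDC1) against 26.8% and 2 lowered (CDC37 and FKBP5) against 27.3%. No member changed by more than 2-fold.

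By size, CDC37 had the largest lowering, with log2 values of -0.41 ± 0.07 in Ctrl (adjusted p = 4.01e-05), -0.33 ± 0.07 in HS (adjusted p = 3.44e-04) and -0.44 ± 0.07 in HS+REC (adjusted p = 1.25e-05). HSP90AA1 was higher by 0.36 ± 0.07 in HS (adjusted p = 2.94e-04) and by 0.27 ± 0.07 in HS+REC (adjusted p = 0.00464), where the arms overlapped, and differed by 0.07 ± 0.07 in Ctrl (adjusted p = 0.465). CHORDC1 was higher by 0.37 ± 0.07 in HS+REC (adjusted p = 2.31e-04), with values of 0.03 in Ctrl and -0.01 in HS that did not pass. These values kept their calls when any 1 library was left out.

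Several of the smaller siLonp1 calls were lost without single libraries. In HS, HSP90AB1 (0.13 ± 0.05, adjusted p = 0.0425) was no longer called without any of 7 libraries, HS scramble replicates 2 and 3, HS siLonp1 replicates 1, 2 and 3, Ctrl scramble replicate 3 and Ctrl siLonp1 replicate 3 (adjusted p of 0.0501 to 0.122). FKBP4 (0.18 ± 0.07, adjusted p = 0.0387) was lost without any of HS scramble replicates 1, 2 and 3 and HS siLonp1 replicates 1 and 3 (0.0527 to 0.124), STIP1 (0.15 ± 0.05, adjusted p = 0.0241) without any of HS scramble replicates 2 and 3 and HS siLonp1 replicates 1 and 3 (0.0569 to 0.0895), and FKBP5 (-0.18 ± 0.06, adjusted p = 0.0106) without HS siLonp1 replicate 1 (0.0662). In HS+REC, PTGES3 (0.19 ± 0.07, adjusted p = 0.0185) was lost without HS+REC scramble replicate 1 (0.128) or HS+REC siLonp1 replicate 2 (0.131), and FKBP5 (-0.16 ± 0.06, adjusted p = 0.0251) without HS+REC scramble replicate 1 (0.114) or HS+REC siLonp1 replicate 1 (0.0816) or 3 (0.066). Calls were gained for FKBP4 in Ctrl without HS+REC scramble replicate 1 (adjusted p = 0.0483), and in HS+REC for FKBP4 without HS+REC scramble replicate 3 (0.0225) or HS+REC siLonp1 replicate 3 (0.0124) and for HSP90AB1 without the latter (0.0479).

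The same calls also depended on the processing. With library totals in place of TMM factors, the HS calls of HSP90AB1 (0.03, adjusted p = 0.587), FKBP4 (0.08, 0.307) and STIP1 (0.05, 0.397) and the HS+REC call of PTGES3 (0.12, 0.116) were lost, and PTGES3 was called lower in HS (-0.16, 0.0393). HSP90AB1 in HS was lost as well with RLE factors (0.13, adjusted p = 0.0508), with no filter (0.14, 0.052) and with the filter applied to all libraries (0.12, 0.0559), and FKBP4 in HS with the last of these (0.17, 0.0525). FKBP5 was lost with no filter in HS (-0.17, adjusted p = 0.0513) and in HS+REC (-0.16, 0.0639), and in HS+REC FKBP5 (-0.16, 0.103) and PTGES3 (0.19, 0.0867) were lost when only the compared groups were fitted. In Ctrl, calls were gained for HSP90AB1 (-0.17, adjusted p = 0.00601) and FKBP5 (-0.17, 0.0175) with library totals, for FKBP4 with no filter (0.17, 0.0373), and for HSP90AB1 (-0.11, 0.0228), FKBP5 (-0.12, 0.0442) and FKBP4 (0.14, 0.0126) with only the compared groups.

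Whether the arms differed in their response to heat was tested as an interaction, the difference between the log2 change in siLonp1 and that in scramble. AHSA1 passed in both, with 0.49 ± 0.10 for HS (adjusted p = 0.0113) and 0.49 ± 0.10 for HS+REC (adjusted p = 0.0141). It was the 1 member raised in each, against 0.475% of all genes for HS and 0.686% for HS+REC, and 0 members were lowered against 1.39% and 0.896% (0 with DESeq2 and at an unadjusted p under 0.05). These all-gene shares are unsteady: of the 12832 genes, 61 were raised and 179 lowered for HS and 88 and 115 for HS+REC, but leaving out 1 library gave 31 to 163 and 67 to 363 for HS and 44 to 132 and 49 to 172 for HS+REC, and DESeq2 gave 122 and 299, and 155 and 162. With only the compared groups fitted, 142 were raised and 589 lowered for HS and 59 and 84 for HS+REC. With no filter, the counts were 140 and 357 for HS and 145 and 240 for HS+REC. The starting point differed as well: AHSA1 was lower in siLonp1 in Ctrl (-0.23 ± 0.07, adjusted p = 0.0119) and higher in HS (0.26 ± 0.07, adjusted p = 0.0036) and in HS+REC (0.26 ± 0.07, adjusted p = 0.0042). Both interactions share the Ctrl libraries. The HS call was lost without HS scramble replicate 1 (0.45, adjusted p = 0.0513), the HS+REC call without Ctrl siLonp1 replicate 1 (0.46, adjusted p = 0.0503), and the Ctrl difference without the latter library (-0.21, adjusted p = 0.0502). The HS+REC difference was 0.17 (adjusted p = 0.0493) without HS+REC siLonp1 replicate 1.

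For the other members the difference between the arms did not pass the threshold. The largest values were 0.29 ± 0.11 for HSP90AA1 (95% confidence interval 0.07 to 0.51, adjusted p = 0.172) and 0.23 ± 0.08 for HSP90AB1 (0.07 to 0.38, adjusted p = 0.126) in HS, and 0.34 ± 0.11 for CHORDC1 (0.12 to 0.56, adjusted p = 0.123) and 0.26 ± 0.10 for PTGES3 (0.06 to 0.45, adjusted p = 0.204) in HS+REC. For FKBP4, the gene with the strongest heat response, the intervals were -0.19 to 0.24 in HS and -0.23 to 0.23 in HS+REC. Without HS+REC scramble replicate 2 the CHORDC1 difference was 0.43 (adjusted p = 0.0265). The HS difference passed for HSP90AA1 with no filter (0.29, adjusted p = 0.0498) and with only the compared groups fitted (0.28, adjusted p = 0.0391), and for HSP90AB1 with the latter (0.22, adjusted p = 0.0498).

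**Figure D4:**
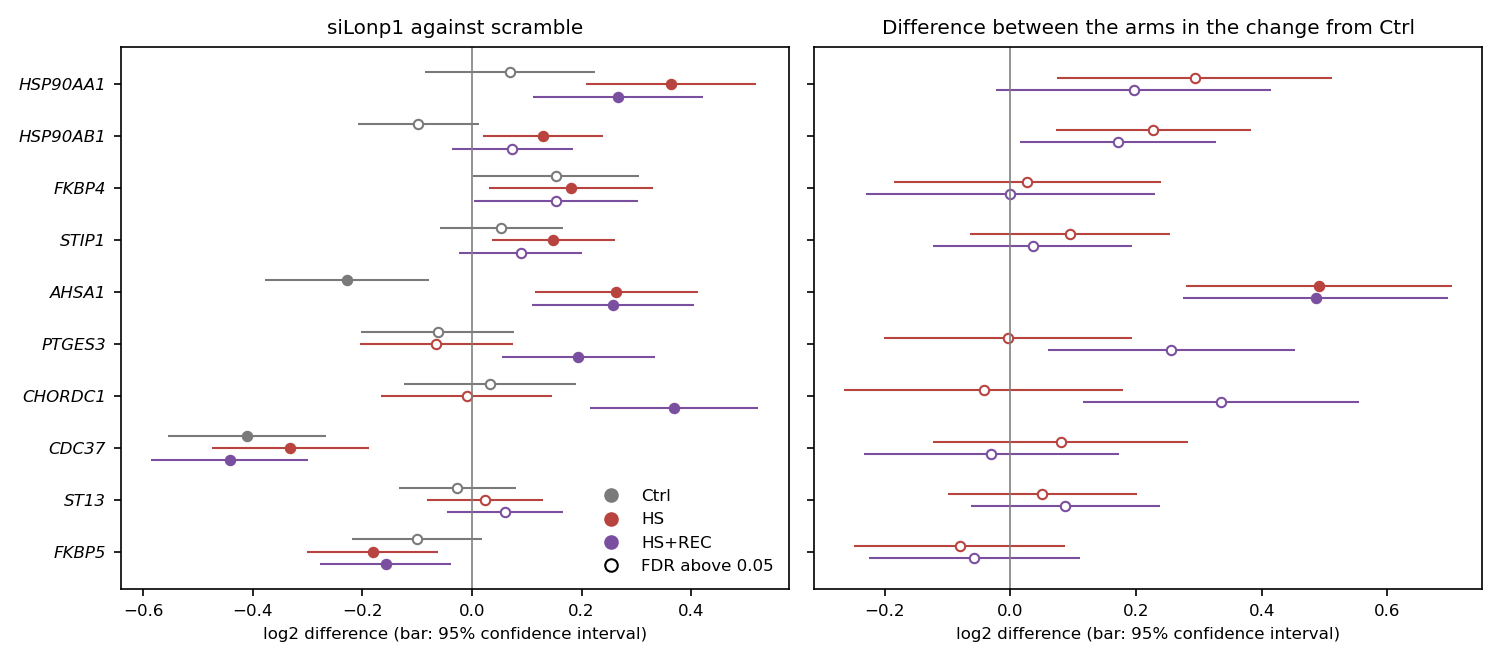
Left, log2 difference of siLonp1 from scramble in Ctrl, HS and HS+REC for each of the 10 genes; right, the interaction for each heated condition; bars are 95% confidence intervals and open circles have an FDR above 0.05. CDC37 lies left of 0 in all 3 conditions, AHSA1 changes side between Ctrl (-0.23) and the heated conditions (0.26 in both), and it alone is filled on the right (0.49 in both).

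Over the 18 libraries, log2 CPM of HSP90AA1, HSP90AB1, FKBP4, STIP1 and AHSA1 moved closely together, with Pearson r from 0.959 to 0.993 between pairs. ST13 had r of 0.932 to 0.984 with these genes, 0.966 with CHORDC1 and 0.909 with PTGES3. PTGES3 and CHORDC1 were closest to each other (r = 0.974), and CDC37 (r of -0.04 to 0.555) and FKBP5 (r of -0.828 to -0.04) stood apart. These are descriptions over n = 18 libraries that fall into 6 groups and are not independent points. Outside the 10 genes, the patterns most like HSP90AA1 were DNAJA1, HSPH1, CACYBP, HSPA8 and NXT2 (r of 0.993 to 0.997), those most like HSP90AB1 were MRPL18, CLU, HSPA4, CWC25 and HSPH1 (0.991 to 0.995), and those most like FKBP5 were RICTOR, CENPC, NR1D2, INO80 and BICC1 (0.951 to 0.968).

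Other genes tied to HSP90 were counted in the same way. Of 27 other cochaperone genes, 6 were raised and 2 lowered in HS scramble, where 18.6% of all genes were raised and 17.3% lowered, and 10 were raised and 4 lowered in HS+REC scramble, against 21.8% and 20.5%. In siLonp1, 9 were raised and 2 lowered in HS, against 20.2% and 22.1%, and 10 and 4 in HS+REC, against 24.6% and 26.6%. Their median log2 fold change in scramble was 0.06 in HS and 0.08 in HS+REC, and that of the 10 genes above was 0.57 and 1.30. Both lists were chosen with earlier results of these data known, so that the gap between them is a description and was not tested. CACYBP (1.19 in HS, 1.79 in HS+REC), AHSA2P, a relative of AHSA1 (0.97 and 1.31), CDC37L1, a relative of CDC37 (0.49 and 0.44), and NUDC (0.43 and 1.26) rose, while SGTA (-0.33 in HS) and RUVBL2 (-0.28 and -0.26) fell. The organelle HSP90 genes did not follow the cytosolic pair: HSP90B1 of the endoplasmic reticulum was at -0.02 in HS and 0.12 in HS+REC, and TRAP1 of mitochondria at 0.02 and 0.05, in scramble. Neither passed the edgeR test against Ctrl in HS or HS+REC of either arm, 1 (HSP90B1) had an unadjusted p under 0.05 in HS+REC of each arm, and DESeq2 called 1 raised in HS+REC siLonp1. HSP90B2P, the pseudogene that passed the filter, did so through libraries with higher counts; it held 28 counts over the 3 Ctrl scramble libraries and 64 over those of HS, too few for its fold change to be read.

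As a scale for the heat response, 13 of 16 genes of the HSP70 system and other heat shock genes were raised in HS scramble (median 1.41; 18.6% of all genes), and 14 were raised and 1 lowered in HS+REC scramble (median 2.54; 21.8% and 20.5%). In siLonp1, 14 were raised in HS (20.2% of all genes), and 14 were raised and 1 lowered in HS+REC (24.6% and 26.6%). For the interaction, 5 of the 16 were raised for HS (0.475% of all genes) and 4 for HS+REC (0.686%). None was lowered with edgeR (1.39% and 0.896% of all genes) or DESeq2, and 2 were lower for HS+REC at an unadjusted p under 0.05. HSPA6 (9.12), HSPA1A (7.11), HSPA1B (6.70), BAG3 (5.37), DNAJB1 (4.47) and HSPH1 (2.76) rose by more in HS than FKBP4, the highest of the HSP90 group; HSPA1A and HSPA1B are near-identical copies whose reads may have been split between them.

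Genes of client classes were counted as well. Of 28 client kinases tested, 4 were raised and 3 lowered in HS scramble (18.6% and 17.3% of all genes), with a median of -0.05, and 4 were raised and 8 lowered in HS+REC scramble (21.8% and 20.5%). In siLonp1, 4 were raised and 12 lowered in HS (20.2% and 22.1% of all genes), and 5 and 11 in HS+REC (24.6% and 26.6%). In scramble, ERN1 (0.70), EIF2AK3 (0.55), INSR (0.54) and BRAF (0.43) rose in HS and PLK1 (-0.38) and CDK4 (-0.24) fell. Of 12 steroid receptor and glucocorticoid response genes, the group in which FKBP5 is known, 7 passed the filter and 6 of them were raised in HS scramble (18.6% of all genes), with a median of 0.51, and 5 in HS+REC scramble (21.8%), with a median of 1.09. In siLonp1, 4 were raised and 1 lowered in HS (20.2% and 22.1%) and 5 were raised in HS+REC (24.6%). DUSP1 (3.42), SGK1 (0.79), AHR (0.57), TSC22D3 (0.51), KLF9 (0.46) and PER1 (0.35) were the 6, and NR3C1, the glucocorticoid receptor gene, was at 0.45 in HS, short of the threshold, and called raised by 1.30 in HS+REC. AHR, the aryl hydrocarbon receptor gene, does not encode a steroid receptor and is counted here only because the list held it. NR3C1 had as few as 26 counts in a Ctrl library and at most 198 in any library. It passed the filter through libraries with higher counts, so that its fold changes are not read, though it remains in the counts and medians of this list. SGK1 had low counts as well, as few as 56 in a Ctrl library and at most 161 in any library, which limits its value of 0.79.

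**Figure D5:**
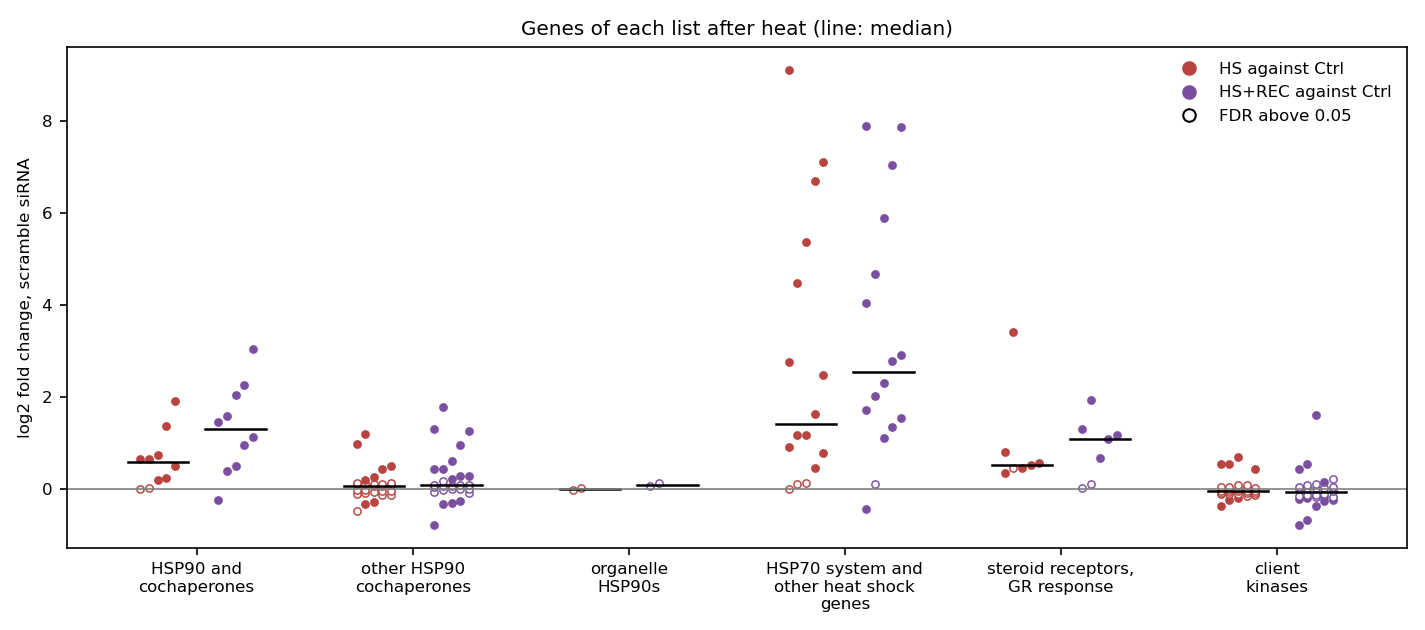
Log2 fold change in scramble cells of each tested gene of 6 lists, HS and HS+REC against Ctrl, with a line at the median; open circles have an FDR above 0.05. The 10 HSP90 and cochaperone genes have medians of 0.57 and 1.30, the other cochaperones 0.06 and 0.08, and the HSP70 system and other heat shock genes 1.41 and 2.54. The lists were chosen with earlier results of these data known.

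The libraries were also read for cell identity. The 8 colon epithelium markers summed to 7903 to 10866 CPM a library, led by KRT8 with 4925 CPM on average in Ctrl scramble. KRT8 and KRT18 made up most of that sum in Ctrl, with at least 199095 and 111705 counts a library. EPCAM had at least 15142 counts there, VIL1 12928, CDH1 4097 and CDX2 573, and LGALS4 did not pass the filter. The 8 markers of other cell types summed to 19.1 to 51.0 CPM. Within the latter, CD68 and COL1A1 alone passed the filter, and PTPRC, CD3E, CDH5, COL1A2 and DCN had at most 11 counts over the 3 libraries of any group. PECAM1, the remaining marker of that list, did not pass the filter either. COL1A1 rose with heat, from 9.21 CPM in Ctrl scramble to 30.2 CPM in HS+REC, with a log2 fold change of 0.89 in HS, and CD68 was higher in siLonp1 (14.3 against 11.2 CPM in Ctrl). Of the 7 colon markers tested 0 were called in HS scramble (edgeR; 0 with DESeq2, and 1, CDX2, at an unadjusted p under 0.05), where 18.6% of all genes were raised and 17.3% lowered. In HS siLonp1 2 were raised and 1 lowered (20.2% and 22.1% of all genes), and in HS+REC 3 (CDH1, CDX2 and VIL1) were lowered in each arm (20.5% in scramble and 26.6% in siLonp1). Between the siRNAs, 2 were called higher in siLonp1 (CDH1 by 0.62, and KRT20, which had 62 counts over 3 scramble and 116 over 3 siLonp1 libraries) and 1 lower (CDX2, -0.90) in Ctrl (26.3% and 22.9% of all genes), 5 were higher and 1 lower in HS (28.1% and 26.7%), and 2 were higher and 2 lower in HS+REC (26.8% and 27.3%). KRT20 had as few as 11 counts in a Ctrl library and at most 49 in any library. It lay near the filter and passed it through libraries with higher counts, so that its calls are not read as a change. The part of these marker changes in the values of the HSP90 genes was not tested.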

How the data were processed

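Polyadenylated RNA of 18 SW620 cultures (6 groups, 3 biological replicates each) was sequenced from stranded mRNA libraries (TruSeq), read as pairs. The values used are raw counts per gene deposited by the authors, who, by the submitters' processing notes, aligned reads to hg38 with STAR 2.7.3a and counted with featureCounts; the notes also name R 3.6.3. The handling of reads shared by several genes is not given in the sources used here. From the counts, CPM were computed with TMM factors (0.934 to 1.057) and library totals (30815860 to 47279297, median 40847024.5). Genes above 1 CPM in at least 3 libraries (12832 of 26485) were kept and fitted with edgeR 4.0.16 in R 4.3.3: a quasi-likelihood model with a mean for each group, 11 contrasts, and Benjamini-Hochberg adjustment over all genes kept, with calls at an FDR of at most 0.05. On simulated counts the edgeR fit called 199 of 200 changed genes, all with the right sign, and made 15 false calls. It called 0 genes for an interaction set to none. Its sensitivity to changes as small as those called for siLonp1, or to an interaction that is present, was not tested. Common biological variation was 0.0658, as a coefficient. Errors are standard errors from the fit of all 18 libraries, in which the 6 groups share 1 estimate of a gene's spread. Replicate pairs differed more in HS+REC (chi-square per degree of freedom over genes 14.7 to 25.8) than in Ctrl (3.51 to 8.89). The printed errors may therefore be too small for HS+REC.

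The alternatives were RLE factors, library totals alone, no filter, a filter on all libraries, DESeq2 1.42.0, a fit of the compared groups alone, a block for the replicate number, an FDR of at most 0.01, and leaving out each library. All 10 genes are named; in other lists, at most 6 genes past the FDR with the largest absolute change in HS scramble are named (every tested gene for paralogs, pseudogenes and steroid receptor genes), and marker genes were singled out after their values were seen. The members and lists were chosen with earlier results of these data known. Promoter windows came from RefSeq annotation and transcript lengths from GENCODE 44.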

Additional observations from a re-analysis of the deposited data

Results flagged for a closer look

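AHSA1 differed between the arms in its response to heat. The interaction, the log2 change in siLonp1 minus that in scramble, was 0.49 for HS and 0.49 for HS+REC, and each passed the edgeR interaction test that compares the arms. In scramble AHSA1 rose by 0.72 in HS and 1.58 in HS+REC, and in siLonp1 by 1.22 and 2.07, from a lower Ctrl level. Both values rest on the same Ctrl libraries, and each call was lost when 1 library was left out. What lies behind the difference was not tested.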

How the results depend on the processing

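No member call in the comparisons of heated with Ctrl cells, or of HS+REC with HS, changed under any alternative or without any library. The siLonp1 and interaction counts moved. With library totals alone, siLonp1 lowered 4 members in Ctrl and raised 2 in HS. With no filter it raised 1 in Ctrl and lowered 1 in HS and 1 in HS+REC, and the HS interaction was raised for 2. With a filter on all libraries siLonp1 raised 3 in HS. With only the compared groups fitted it raised 1 and lowered 4 in Ctrl and lowered 1 in HS+REC, and the HS interaction was raised for 3. At an FDR of at most 0.01 it lowered 1 in Ctrl, raised 2 and lowered 1 in HS and lowered 1 in HS+REC, and each interaction was raised for 0. DESeq2 made the same calls for all 110 member values. Leaving out 1 library gave 0 to 1 raised and 1 to 2 lowered in Ctrl, 2 to 5 raised and 1 to 2 lowered in HS, 3 to 6 raised and 1 to 2 lowered in HS+REC, 0 to 1 raised for the HS interaction and 0 to 2 for the HS+REC interaction; 97 of 110 calls were the same in every such fit. With the replicate number as a block, 109 of 110 calls were the same and FKBP4 in HS (0.18, adjusted p = 0.0511) was not called. Libraries of the same number did not deviate together (45 pairs, median r = -0.02, -0.38 to 0.46; 6 of 18 libraries correlated best with their own number), so the numbers were not taken as pairs. With library totals alone the percent raised among called genes went from 51.5 to 34.9 (HS+REC scramble), 48.0 to 35.1 (HS+REC siLonp1), 52.7 to 36.3 (HS+REC against HS, scramble), and for siLonp1 from 53.4 to 39.2 (Ctrl), 51.3 to 35.0 (HS) and 49.6 to 37.4 (HS+REC). The HSP90AA1 to HSP90AB1 ratio kept its direction in all 9 comparisons without any library. The cause of these shifts was not tested.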
